A study of Rattus norvegicus with 18 samples.

Results

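The genes described here are 10 transcription factors of the immediate early response, Fos, Fosb, Jun, Junb, Egr1, Egr2, Nr4a1, Nr4a2, Nr4a3 and Atf3. They were chosen by name, as all probe sets that the array annotation assigns to exactly 1 of these symbols, which gave 17 probe sets for 10 genes among the 31042 probe sets of the array that are not controls. Their levels were read in scrapings of distal and of proximal colonic mucosa from 9 male Sprague Dawley rats, 1 array per region and rat, 18 in all. Every rat, in both groups, was fed modified AIN-93G for 10 days, received azoxymethane, a colon carcinogen that alkylates DNA, under the skin at 15 mg per kg, and was killed 6 h after that injection. The labels describe the scrapings as epithelium. No rat without azoxymethane is among these samples, so the values describe the regions after the injection and not what the injection changed. The rats had been allocated at random to 2 groups that the labels do not tell apart, so only distal and proximal colon were compared.

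Immediate early genes are switched on within minutes of a stimulus without the need for new protein, because the factors that read their promoters are already in the cell and are activated by phosphorylation. Growth factor and stress kinases act through serum response factor and its partners at CArG boxes and through CREB at cyclic AMP response elements (CRE). The products are themselves transcription factors. Fos and Jun proteins pair to form AP-1, the Egr proteins bind GC-rich sites through zinc fingers, the Nr4a proteins are orphan nuclear receptors that bind as monomers to the NBRE, and Atf3 is a stress-induced partner of the same bZIP class as AP-1. In the gut these genes respond to feeding, wounding, growth factors and injury, and their transcripts are short-lived.

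Nr4a2 stood apart from the other members. It was 3.32-fold higher in distal than in proximal colon, in 9 of 9 rats, with no overlap between the regions. Egr2 was 1.45-fold higher in distal colon and also passed. The other 8 genes did not pass, and of these Fos, Junb and Atf3 had differences of 0.44 to 0.62 on the log2 scale toward distal colon, while Egr1, Nr4a1 and Fosb had differences between -0.04 and 0.14. Thus 2 of 10 members passed toward distal colon and 0 toward proximal colon, where a limma fit over all probe sets was used and a gene was represented by its probe set with the highest mean. This fit had no term for rat and so did not use the pairing of the arrays. Over all 11407 genes tested, 30.8% passed in either direction and 16.2% toward distal colon, so the share of members that passed is near the background. Of 16 member probe sets tested, 4 passed, all toward distal colon, against 26.5% of all probe sets in either direction and 14.3% toward distal colon. All 10 members had a representative probe set above the filter on low signals. Regions did not overlap in 6.89% of the 11407 genes, and in 3.22% with distal colon higher. The median difference of the 10 members was 0.30 on the log2 scale, and that of all genes 0.01. Leaving out the proximal arrays of rats 3 and 6 took the members' median to 0.15, with 5 of 10 members positive in place of 8, and leaving out both rats took it to 0.17.

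With rat as a block, which compares the distal and the proximal sample within each animal, 5 members passed toward distal colon: Nr4a2, Atf3 (adjusted p = 0.00976), Fos (adjusted p = 0.0170), Junb (adjusted p = 0.0260) and Egr2 (adjusted p = 0.0283), by the same limma test. In that fit 36.8% of all genes passed in either direction, and 2219 of 11407 genes passed toward distal colon. When the scaling of the deposited values was kept, only Nr4a2 passed, against 17.6% of all genes in either direction. Nr4a2 alone also passed when proximal rats 3 and 6, or rats 3 and 6 in both regions, were left out. In those fits 29.5% and 29.6% of all genes passed in either direction. Without these rats and with rat as a block, Nr4a2, Atf3 (adjusted p = 0.0300) and Egr1 (adjusted p = 0.0202, log2 difference -0.26) passed. In that fit 35.4% of all genes passed in either direction, so the share of members is near the background. Nr4a2 passed in each of these limma fits.

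The arrays themselves differed in ways that touch these values. The trimmed mean of the deposited signals ran from 210.3 to 341.2 in distal and from 257.5 to 339.7 in proximal colon, which is why quantile-normalized values were used. The scraping from proximal colon of rat 3 had the highest signal of all 18 arrays for 10 of 10 smooth muscle markers, with a mean log2 signal of 12.09 against at most 9.88 in any other array. The mean of the smooth muscle list ran from 6.77 to 9.88 in distal and from 7.00 to 12.09 in proximal colon, and 0 of its 10 genes passed. In RNA quality the distal array of rat 3 stood apart, with a 3'/5' signal ratio of 3.52 for beta-actin, against at most 2.50 in any other array, and of 1.67 for GAPDH, against at most 1.42. The part of RNA quality in the member values was not tested. Without rat 3 the log2 difference was 1.67 for Nr4a2 and 0.42 for Egr2, and both passed. The proximal arrays of rats 3 and 6 were the 2 lowest proximal arrays in 7 of 10 members, against 13.6% of all genes. Unlike rat 3, proximal rat 6 had a smooth muscle list mean of 7.52, below the proximal median of 7.83. The part of muscle RNA in the member values was not tested. Without the 3 arrays of highest smooth muscle score Nr4a2 and Egr2 passed as before. Of 12 epithelial markers, 6 were lower in distal colon and 0 were higher, with list means of 12.40 to 12.64 in distal and 12.80 to 13.00 in proximal colon, so epithelial markers were high in every array. Fibroblast list means ran from 6.57 to 10.47 in distal and from 6.41 to 11.28 in proximal colon, with 0 of 8 genes passing, and T cell list means from 5.90 to 8.13 in distal and from 5.79 to 8.34 in proximal colon, with 0 of 6 passing. Endothelial list means were 5.77 to 7.72 in distal and 5.70 to 8.16 in proximal colon, and 0 of 6 genes passed. Of 3 tested neuronal and glial markers 0 passed, and Elavl4, Prph, Snap25, Sox10 and Uchl1 lay below the filter in these tissues. Of 7 mast cell and granulocyte markers 4 passed, of 6 macrophage markers 1 and of 5 B and plasma cell markers 1. Named after their values were seen, these were S100a8, S100a9 and Cd14, higher in distal colon, and Kit, Fcer1a and Jchain, lower in distal colon. The part of these cells in the member values was not tested. In bulk scrapings, more cells of a type and more RNA per cell cannot be told apart.

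**Figure D1:**
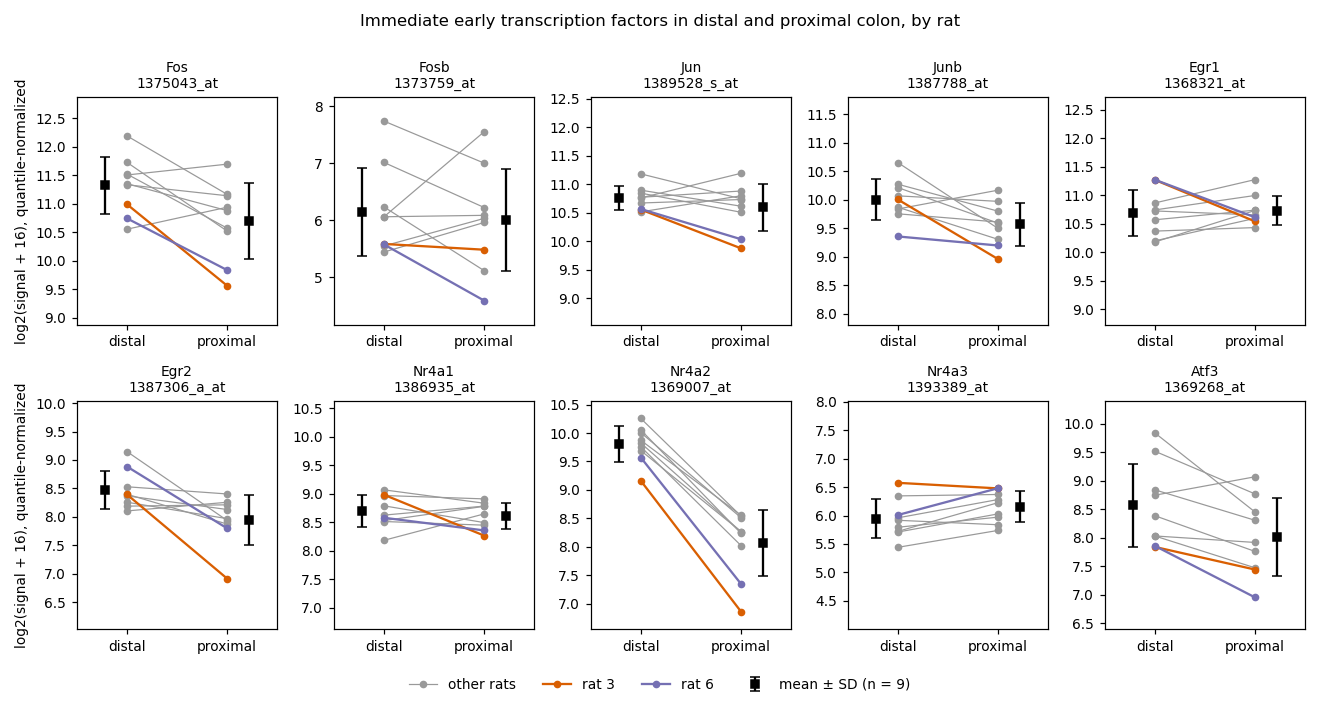
Quantile-normalized log2(signal + 16) of each member's representative probe set in distal (left) and proximal (right) colon, with a line for each of the 9 rats and squares for the mean ± SD of each region. Panels share the same span but not the same level. All 9 rats are higher in distal colon for Nr4a2, without overlap (9.16 to 10.26 in distal, 6.86 to 8.56 in proximal colon), and rats 3 (orange) and 6 (violet) lie lowest in proximal colon for Fos, Jun, Junb, Egr2, Nr4a1, Nr4a2 and Atf3.

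The Nr4a receptors were read by 6 probe sets. Nr4a2 (also Nurr1), best known for the development of dopamine neurons and induced in many cells by cyclic AMP and prostaglandins, had a lowest, median and highest log2 signal of 9.16, 9.82 and 10.26 in distal colon, against 6.86, 8.27 and 8.56 in proximal colon (probe set 1369007_at). Every distal array thus lay above every proximal array. In deposited signal units these were 456, 887 and 1241 in distal colon and 130.5, 283 and 394 in proximal colon. The means were 9.80 ± 0.32 in distal and 8.07 ± 0.59 in proximal colon (SD, n = 9 each), and the log2 difference was 1.73 ± 0.20 (SE; limma adjusted p = 2.70e-06). Each rat showed it, with within-rat differences of 1.32 to 2.30 (median 1.72), and in 9 of 9 rats Nr4a2 had the largest within-rat difference of all 10 members. An exact permutation of the signs of the 9 differences gave p = 0.00391 (two-sided), the smallest value that 9 rats allow.

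The other probe set of Nr4a2, 1387410_at, had a lowest, median and highest log2 signal of 7.60, 8.28 and 8.53 in distal colon, against 4.28, 6.60 and 7.07 in proximal colon. Again the regions did not overlap, and the log2 difference was 1.92 ± 0.31 (SE, n = 9 each; limma adjusted p = 0.000121, higher in distal colon in 9 of 9 rats). The signals of both Nr4a2 probe sets varied together over the 18 arrays (Pearson's r = 0.88 after the region means were removed). The proximal arrays of rats 3 and 6, with log2 signals of 6.86 and 7.35 in 1369007_at against 8.02 to 8.56 in the other proximal arrays, lay lowest. Without them the difference was 1.47 (SE 0.13, adjusted p = 1.24e-07), and for 1387410_at 1.47 (adjusted p = 1.61e-06). With the deposited scaling kept the differences were 1.62 and 1.84. Among 11407 genes Nr4a2 held place 46 in the order of differences toward distal colon.

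Nr4a1 (also Nur77), the relative best known for roles in T cell death and in macrophages, did not share this difference. Its lowest, median and highest log2 signals were 8.18, 8.62 and 9.07 in distal colon and 8.26, 8.65 and 8.91 in proximal colon, ranges that almost coincide. The log2 difference was 0.08 ± 0.12 (SE, n = 9 each; limma adjusted p = 0.662), higher in distal colon in 6 of 9 rats, and its sign turned with the deposited scaling (-0.011) and without proximal rats 3 and 6.

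Nr4a3 (also NOR-1) was low, and its 3 probe sets disagreed. The representative, 1393389_at, had a lowest, median and highest log2 signal of 5.44, 5.92 and 6.57 in distal colon, against 5.74, 6.23 and 6.48 in proximal colon, where the filter on low signals lay at 5.54. Its log2 difference of -0.22 ± 0.15 did not pass (limma adjusted p = 0.309, higher in distal colon in 2 of 9 rats). Probe set 1369217_at gave 0.31 and 1369067_at gave -0.02, and correlations between the 3, after removal of the region means, ran from -0.25 to 0.50 over 18 arrays. The 3 probe sets thus give no shared direction.

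To show the sequence next to which Nr4a2 and its relative Nr4a1, which did not pass, are annotated to start, the promoter windows of both are printed, together with that of Egr2, the other member that passed. RefSeq windows (build GRCr8, 250 bases before to 50 after the annotated start, 5′ to 3′ on the gene's strand) were held for 6 of the 10 members, namely Fosb, Junb, Egr1, Egr2, Nr4a1 and Nr4a2. Capitals mark matches, on either strand, to TGACG (the core of the CRE), TGCGTCA (added after the Nr4a1 window had been read), TGANTCA (AP-1), GCGNGGGCG (Egr), AAAGGTCA (NBRE) and the CArG box.
Nr4a2, chr3:62104838-62105137, minus strand: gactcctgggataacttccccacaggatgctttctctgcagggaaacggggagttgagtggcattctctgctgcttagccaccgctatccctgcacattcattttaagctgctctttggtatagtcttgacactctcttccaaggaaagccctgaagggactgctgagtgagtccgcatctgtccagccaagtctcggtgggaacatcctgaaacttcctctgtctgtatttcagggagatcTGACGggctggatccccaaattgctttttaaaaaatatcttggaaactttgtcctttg
Nr4a1, chr7:134259888-134260187, plus strand: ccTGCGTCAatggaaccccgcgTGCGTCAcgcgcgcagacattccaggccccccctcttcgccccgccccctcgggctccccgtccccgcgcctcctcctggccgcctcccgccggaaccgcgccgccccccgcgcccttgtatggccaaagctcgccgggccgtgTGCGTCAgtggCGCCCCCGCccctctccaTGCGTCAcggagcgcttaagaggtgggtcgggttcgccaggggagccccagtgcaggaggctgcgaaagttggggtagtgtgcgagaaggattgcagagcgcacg
Egr2, chr20:21054392-21054691, minus strand: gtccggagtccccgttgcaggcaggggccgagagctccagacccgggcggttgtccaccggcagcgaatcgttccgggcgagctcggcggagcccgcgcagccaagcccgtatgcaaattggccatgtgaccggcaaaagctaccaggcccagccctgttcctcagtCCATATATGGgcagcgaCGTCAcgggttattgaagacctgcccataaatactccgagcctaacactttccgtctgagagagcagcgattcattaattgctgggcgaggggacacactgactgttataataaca

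The Nr4a1 window held 4 copies of TGCGTCA, each of which contains the reverse complement of the CRE core, and 1 Egr match. The Nr4a2 window held 1 CRE core, 8 bases before the annotated start, and none of the other motifs. The Egr2 window held 1 CArG box, beginning 83 bases before the start, and 1 CRE core. Of the windows not printed, that of Egr1, which did not pass, held 2 CArG boxes and 2 CRE cores. That of Junb held 1 CRE core, and that of Fosb held none of the motifs. Among 33469 RefSeq windows of the same length, 21.2% held TGACG, 1.9% TGCGTCA, 4.98% the Egr motif and 1.64% a CArG box, while the whole CRE, TGACGTCA, was in 1.83%, AP-1 in 7.33% and the NBRE in 1.43%. The Nr4a2 and Nr4a1 windows lie 11039 and 12985 bases inside the outermost start of their genes, and the arrays do not show which start was used. The Egr2 start lies 760 bases inside. G and C made up 48.7% of the Nr4a2 window, 72.3% of that of Nr4a1 and 59.0% of that of Egr2, against a median of 51.7% over all windows. These matches describe the letters of the windows and are not measured binding.

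Of the AP-1 genes, Fos, the classical partner of Jun, had the largest difference. Its main probe set, 1375043_at, had a lowest, median and highest log2 signal of 10.56, 11.35 and 12.19 in distal colon and 9.56, 10.88 and 11.70 in proximal colon. The ranges overlapped, and the proximal arrays of rats 3 and 6 (9.56 and 9.84) lay below all others. The log2 difference of 0.62 ± 0.25 (SE, n = 9 each, 7 of 9 rats) did not pass (limma adjusted p = 0.0748). It passed with rat as a block and without rat 4 (adjusted p = 0.0479) or rat 8 (adjusted p = 0.0464), and it was 0.34 (adjusted p = 0.258) without proximal rats 3 and 6. The other Fos probe set, 1371283_at, lay below the filter with log2 signals of 4.50 to 5.95 in distal and 4.74 to 6.24 in proximal colon, and was not tested.

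Jun, which can pair with itself or with Fos, was read by 3 probe sets, and they did not give the same call. The 1 with the highest mean, 1389528_s_at, had a lowest, median and highest log2 signal of 10.51, 10.76 and 11.18 in distal colon and 9.87, 10.73 and 11.19 in proximal colon, and a difference of 0.15 ± 0.14 (SE, limma adjusted p = 0.464). For 1369788_s_at they were 9.88, 10.45 and 10.70 in distal colon and 9.12, 9.95 and 10.29 in proximal colon. This probe set passed, with a difference of 0.56 ± 0.15 (8 of 9 rats, limma adjusted p = 0.00902), and still passed without proximal rats 3 and 6 (0.37, adjusted p = 0.0210), while keeping the deposited scaling took the adjusted p to 0.0507. Without rats 3 and 6 in both regions it was 0.31 (adjusted p = 0.0586). The remaining probe set, 1374404_at, gave 0.38 ± 0.16 (adjusted p = 0.0894, and 0.0356 with rat as a block), but 0.17 (adjusted p = 0.263) without proximal rats 3 and 6, and its adjusted p was 0.319 under the deposited scaling. All 3 varied together among arrays, with r from 0.72 to 0.93 after removal of the region means. Probe sets ending in s may also bind other transcripts.

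Junb, which pairs with Fos proteins and often restrains Jun, had a lowest, median and highest log2 signal of 9.36, 10.01 and 10.66 in distal colon and 8.96, 9.59 and 10.17 in proximal colon. Distal was higher in 8 of 9 rats, by 0.44 ± 0.16 (SE, n = 9 each), which did not pass (limma adjusted p = 0.0514). It passed with rat as a block, without rat 6 (adjusted p = 0.0352), without rat 10 (adjusted p = 0.0240) and with the lowest 50% of probe sets left out. It did not pass without proximal rats 3 and 6 (0.30, adjusted p = 0.172) or with the deposited scaling (0.34, adjusted p = 0.272), and without rat 2 the adjusted p was 0.133. Fosb, a Fos relative with low basal levels in most tissues, ran from 5.44 to 7.74 in distal colon (median 6.06) and from 4.59 to 7.55 in proximal colon (median 6.03). Its difference was 0.14 ± 0.36 (limma adjusted p = 0.823, 5 of 9 rats), and -0.14 without proximal rats 3 and 6. Rats differed in Fosb far more than regions did.

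Of the zinc finger factors, Egr1, which relays growth factor signals, had a lowest, median and highest log2 signal of 10.18, 10.73 and 11.28 in distal colon and 10.43, 10.66 and 11.28 in proximal colon. The regions overlapped almost fully, with a difference of -0.04 ± 0.15 (SE, n = 9 each; limma adjusted p = 0.863). Distal was higher in 3 of 9 rats. In rats 3 and 6 the within-rat differences were 0.73 and 0.66, and in the other rats they ran from -0.55 to 0.07. Egr2, known for hindbrain and Schwann cell development and for restraint of T cells, had 8.11, 8.40 and 9.15 in distal colon and 6.92, 7.97 and 8.40 in proximal colon (1387306_a_at). Its difference of 0.53 ± 0.17 passed (limma adjusted p = 0.0258, 7 of 9 rats). The proximal array of rat 3, at 6.92, lay 0.88 below the next array. Without the proximal arrays of rats 3 and 6 the difference was 0.37 (adjusted p = 0.0550), and it did not pass without rat 2 (adjusted p = 0.0679), rat 5 (adjusted p = 0.0535) or rat 6 (adjusted p = 0.0785), or with the deposited scaling (adjusted p = 0.105). Without rats 3 and 6 in both regions it was 0.32 (adjusted p = 0.107). The dimmer Egr2 probe set, 1398266_a_at, gave 0.39 ± 0.20 (adjusted p = 0.172), a size that ran from 0.19 with a pseudocount of 64 to 0.64 with a pseudocount of 1.

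Atf3, induced by many kinds of stress, had a lowest, median and highest log2 signal of 7.84, 8.39 and 9.84 in distal colon and 6.95, 7.92 and 9.07 in proximal colon. Distal was higher in 8 of 9 rats, with rat 8 the exception (-0.32). The log2 difference was 0.55 ± 0.30 (SE, n = 9 each; limma adjusted p = 0.195), and with rat as a block its error was smaller (SE 0.14, adjusted p = 0.00976). Without proximal rats 3 and 6 and without the block it was 0.32 (adjusted p = 0.485). By representative probe sets, Atf3 was the member other than Nr4a2 that passed with the block both under the deposited scaling (adjusted p = 0.0484) and without rats 3 and 6 (adjusted p = 0.0300). The exact permutation of signs gave p = 0.0117 for Atf3 (two-sided, 9 rats), and a p below 0.05 for 6 of the 10 members before any adjustment. No share of all genes is given for this permutation, so the count of 6 cannot be set against a background.

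**Figure D2:**
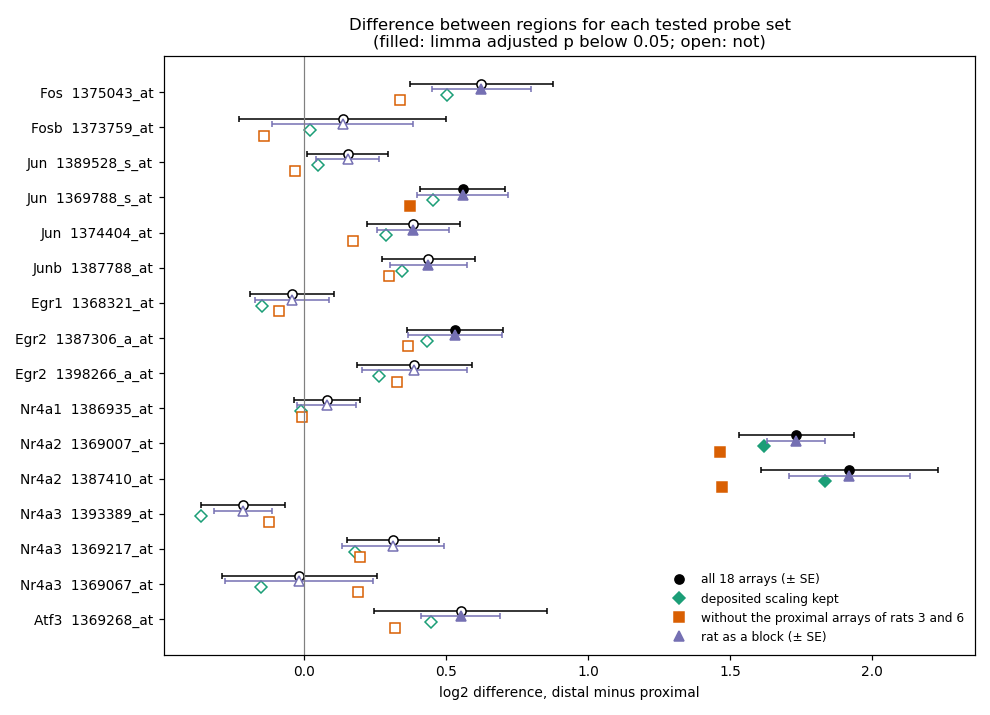
Log2 difference, distal minus proximal colon, of the 16 tested probe sets under 4 settings, with filled symbols for a limma adjusted p below 0.05 and bars for the SE. The 2 Nr4a2 probe sets lie between 1.47 and 1.92 and are filled under all 4 settings, while Fos, Junb, Atf3 and Jun 1374404_at are filled with rat as a block alone.

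The rats differed widely in these genes within a region. The median SD among rats of the 10 representative probe sets was 0.35 in distal and 0.42 in proximal colon on the log2 scale, against 0.21 and 0.22 for all genes in distal and proximal colon. Fosb and Atf3 spread most, with SDs of 0.78 and 0.73 in distal colon and 0.90 and 0.69 in proximal colon. Nr4a2 had an SD of 0.32 in distal and 0.59 in proximal colon. At 6 h after the same injection, normalized Atf3 log2 signals ran from 7.84 to 9.84 in distal and from 6.95 to 9.07 in proximal colon. Deposited Atf3 signals, which also carry the scale of each array, ran from 182 to 951 and from 124 to 597.

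Some members varied together from array to array. After the region means were removed, Pearson's r over 18 arrays was 0.91 between Fos and Jun (Spearman's rho 0.95), 0.90 between Fosb and Atf3 (rho 0.84) and 0.81 between Fos and Junb (rho 0.76). The 10 pairs among Fos, Fosb, Jun, Junb and Atf3 had a median r of 0.78 (0.50 to 0.91), of 0.85 within distal colon and 0.74 within proximal colon. Without the proximal arrays of rats 3 and 6 this median was 0.72. Among all 11406 other genes, Jun ranked 1 in likeness to Fos, and Fosb and Atf3 ranked 1 in likeness to each other. These correlations describe 18 arrays, 2 from each rat, which share each array's labelling and scaling.

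Nr4a2 did not follow that group in distal colon. Its r with the 8 members other than Nr4a3 had a median of -0.01 within distal colon (9 arrays), and of 0.77 within proximal colon (9 arrays). With the proximal arrays of rats 3 and 6 left out, the median over both regions was -0.01, against 0.44 with them. Egr1 likewise had a median r of -0.26 (-0.73 to 0.47) with the other 9 members in distal and 0.48 (-0.51 to 0.61) in proximal colon. Over both regions the Egr1 median was 0.07, and -0.04 without proximal rats 3 and 6. Nr4a3, by its representative probe set 1393389_at, ran against the others in proximal colon, at signals near the filter level. Its median r was -0.62 (-0.90 to -0.49) in proximal colon and -0.11 in distal colon. Over both regions its median was -0.42, and -0.20 without proximal rats 3 and 6. After removal of the region means, 1393389_at had an r of -0.18 with 1369217_at and of 0.50 with 1369067_at. Proximal rats 3 and 6 were the highest proximal arrays in 1393389_at and 1369067_at, but the lowest in 1369217_at. The other Nr4a3 probe sets were not set against the members, so these values describe 1393389_at alone.

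**Figure D3:**
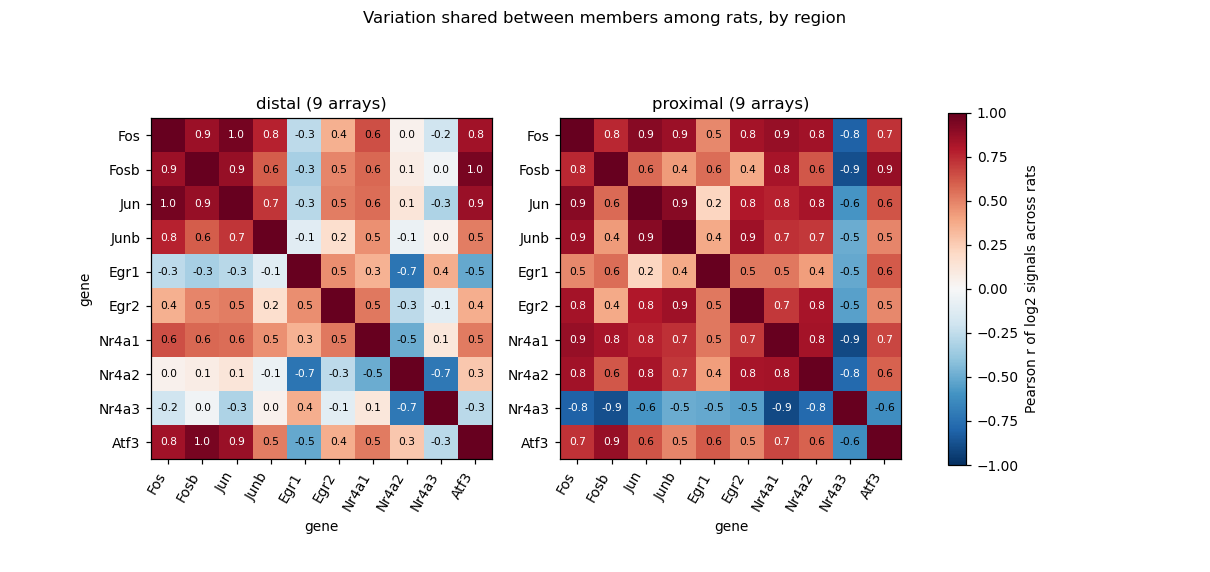
Pearson's r of log2 signals between members across the 9 rats, in distal colon (left) and in proximal colon (right), with the colour scale from -1 to 1. Fos, Fosb, Jun, Junb and Atf3 form a block of high values in both regions (medians 0.85 and 0.74), and Nr4a2 joins them in proximal colon but not in distal colon (medians -0.01 and 0.77), although over both regions its median is -0.01 once the proximal arrays of rats 3 and 6 are left out.

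Genes outside the set that were most like 4 of the members over the 18 arrays were looked up among 11397 genes. For Fos they were Tiparp (r = 0.90), Errfi1 (0.88), Tob1 (0.88), Phlda2 (0.87) and Trib1 (0.84), which stayed at 0.71 to 0.81 without proximal rats 3 and 6. For Atf3 they were Nectin2 (r = 0.89), Alas1 (0.88), Dusp6 (0.81), Kalrn (0.80) and Sirt7 (0.79). For Egr1 they were Acvr2b (r = 0.84), Sik2 (0.80), Cdca7l (0.78), Ackr4 (0.77) and Cd276 (0.77), and for Nr4a1 Ddx56 (r = 0.81), Stambpl1 (0.79), Ccdc93 (0.78), Adar (0.77) and Nmi (0.77). For Nr4a2, looked up after its values had been seen, Ptger4, the prostaglandin E2 receptor EP4, was most like it (r = 0.95, and 0.83 without proximal rats 3 and 6), followed by Tspan15 (r = 0.95, and 0.84). Spearman's rho was 0.85 for Ptger4 and 0.79 for Tspan15. Next were Smpdl3b (r = 0.92), Tlr4 (0.91) and Tmem79 (0.90), which fell to 0.71, 0.65 and 0.65 without proximal rats 3 and 6. Ptger4 itself did not pass between the regions (log2 difference 0.29, limma adjusted p = 0.194).

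Other genes of the early response were listed by role, 131 symbols in 5 lists. Of 103 tested, 21 passed toward distal and 10 toward proximal colon, which is 30.1% against 30.8% of all genes. With the deposited scaling kept the counts were 4 and 13, and the median of all genes was -0.10, against 0.01 after quantile normalization. Their median difference was 0.09. The members' median exceeded that of all genes by 0.28 after quantile normalization, by 0.29 with the deposited scaling, by 0.13 without proximal rats 3 and 6 and by 0.16 without rats 3 and 6 in both regions.

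Among 12 AP-1 and ATF relatives, 1 passed toward distal and 2 toward proximal colon. Atf4, the translation-controlled factor of the integrated stress response, had log2 signals of 11.89 to 12.22 in distal and 11.46 to 12.02 in proximal colon (1.21-fold higher in distal colon, limma adjusted p = 0.00353, 9 of 9 rats), but the deposited scaling gave an adjusted p of 0.492. Atf6, a sensor of the endoplasmic reticulum, was 1.23-fold lower in distal colon and Atf5 1.29-fold lower (limma adjusted p = 0.0123 and 0.0373). With arrays centred on their medians, Atf4, Atf6 and Atf5 did not pass (adjusted p = 0.0545, 0.0557 and 0.0523). Atf5 was lost without rat 1, 2, 4, 5, 6, 7, 8 or 10 (adjusted p = 0.0543 to 0.120).

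Of 23 other early transcription factors, 6 were higher in distal colon and 1 in proximal colon. Id3, an inhibitor of bHLH factors, had log2 signals of 10.01 to 10.58 in distal and 8.88 to 9.98 in proximal colon, without overlap (1.51-fold, limma adjusted p = 0.00208). Ier2 and Ier3, early genes with a serum response, were 1.39-fold and 1.38-fold higher in distal colon (limma adjusted p = 0.00242 and 0.0184), Ier3 with an adjusted p of 0.0653 without rat 5. Nfil3, a bZIP repressor of the circadian clock, ran the other way, with 6.13 to 7.07 in distal and 6.92 to 8.17 in proximal colon (1.78-fold lower in distal colon, limma adjusted p = 0.00046, 9 of 9 rats). With the deposited scaling Id3, Ier2 and Ier3 did not pass.

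Of 22 feedback inhibitors, 3 were higher in distal colon and 1 in proximal colon. Zfp36l2, which promotes decay of AU-rich transcripts, had log2 signals of 11.83 to 12.35 in distal and 11.49 to 11.80 in proximal colon, without overlap (1.42-fold, limma adjusted p = 9.94e-06). Trib1, a pseudokinase, was 1.67-fold higher in distal colon (adjusted p = 0.0147, by limma) and Dusp1, a phosphatase of stress kinases, 1.30-fold (adjusted p = 0.0450, and 0.148 without proximal rats 3 and 6). Dusp1 was also lost without rat 1, 2, 3, 4, 5, 6 or 8 (adjusted p = 0.0518 to 0.135), and the mean of its probe sets gave 0.22 (adjusted p = 0.345) in place of 0.38. Trib1 had a log2 difference of 0.49 without proximal rats 3 and 6, in place of 0.74. Dusp6, which removes phosphate from ERK, had 8.57 to 9.73 in distal and 8.98 to 10.34 in proximal colon and was 1.65-fold lower in distal colon in 9 of 9 rats (limma adjusted p = 0.00315). With the deposited scaling Zfp36l2, Trib1 and Dusp1 did not pass.

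Of 23 early secreted, survival and signalling genes, 8 were higher in distal colon and 2 in proximal colon. Areg, which encodes amphiregulin, a ligand of the EGF receptor, had a lowest, median and highest log2 signal of 8.10, 9.28 and 10.16 in distal colon and 6.29, 7.34 and 8.31 in proximal colon. This was 3.56-fold higher in distal colon in 9 of 9 rats (log2 difference 1.83 ± 0.27, SE, limma adjusted p = 3.75e-05), a size near that of Nr4a2. Plk2, a kinase that p53 can induce, and Gadd45b, a stress sensor, were 1.60-fold and 1.56-fold higher in distal colon (limma adjusted p = 0.0248 and 0.00285). Plk2 was lost without rat 2, 3 or 5 (adjusted p = 0.0516 to 0.0641), with the deposited scaling and without the 3 arrays of highest smooth muscle score (adjusted p = 0.0957). Its log2 difference was 0.38 without proximal rats 3 and 6, in place of 0.68. Gem, a small GTP-binding protein, was 2.37-fold lower in distal colon, with 6.26 to 8.31 in distal and 8.10 to 9.25 in proximal colon (limma adjusted p = 0.000157). Tgfa, another ligand of the EGF receptor, was 1.44-fold lower (limma adjusted p = 0.000353), so ligands of the same receptor differed in opposite directions.

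Of 23 upstream kinases and factors, 3 were higher in distal colon and 4 in proximal colon, all by less than 1.4-fold. Crebbp, the coactivator of CREB, was 1.37-fold higher in distal colon (log2 difference 0.46, but 0.16 with an adjusted p of 0.0464 by the mean of its probe sets), Mrtfa, a partner of serum response factor, 1.28-fold and Map3k1, a kinase above JNK, 1.21-fold. Camk2d was 1.32-fold, Prkca 1.30-fold and Map2k1, the kinase that activates ERK, 1.26-fold lower in distal colon. By limma their adjusted p ran from 0.000301 for Crebbp to 0.0360 for Prkca. Prkca was lost without rat 2, 3, 5, 6 or 8 (adjusted p = 0.0519 to 0.104), and Mrtfa and Map3k1 with the deposited scaling (adjusted p = 0.119 and 0.320).

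**Figure D4:**
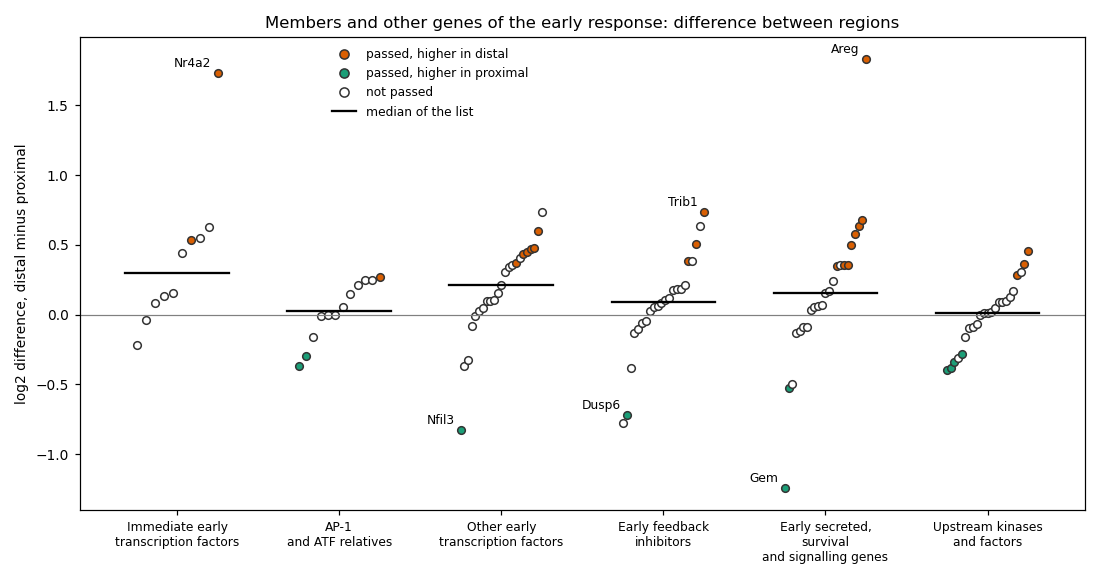
Log2 difference, distal minus proximal colon, of the 10 members and of the genes of 5 lists of the early response, with filled symbols for genes that passed and a bar for the median of each list. Nr4a2 (1.73) and Areg (1.83) lie far above the other genes, and Gem (-1.25) lies lowest.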

How the data were processed

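Gene expression was measured in 18 samples, 9 distal and 9 proximal. Each array gives 1 intensity per probe set, which the authors computed with MAS5 (per the submitters' processing notes) and deposited unlogged. Neither version nor scaling target is given in the sources used here. The number of arrays limits the precision. From them log2(value + 16) was computed and quantile-normalized, and the dimmest 30% by mean (below 5.54) were dropped, leaving 21729 probe sets. Folds are on this scale and understate those of low genes. The regions were compared, distal minus proximal, in limma 3.58.1 in R 4.3.3 (lmFit, eBayes with an intensity trend), two-sided, with Benjamini-Hochberg adjustment over all 21729 probe sets, and the threshold was an adjusted p of 0.05. The fit was tested on simulated data. Symbols came from the array annotation (2016), checked against RefSeq. Other values were computed in Python 3.11.15.

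Rat numbers pair the arrays because both come from the same animal, per the labels. Deviations from the region means correlated within rats with a median r of 0.23 (0.000945 to 0.569), against -0.03 between rats. Members, lists and tests were chosen with earlier results of these data known. The text names all members, up to 3 passing genes per list and direction, taken by size of difference, and the 5 genes most like Fos, Egr1, Nr4a1 and Atf3. The 5 genes most like Nr4a2 were added after its values had been seen. Other cell types are given by list. Alternatives covered scaling, pseudocount, filter, block, left-out arrays, variance model, representation by the mean of a gene's probe sets and exact permutation. Rat 9 was not analysed here.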

Additional observations from a re-analysis of the deposited data

Results flagged for a closer look

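Among 34 groups of 9 arrays (17 probe sets in each region), 1 array lay apart from the rest of its group by Dixon's criterion, where chance alone gives about 1 in 20. This was the proximal array of rat 3 for Egr2 (1387306_a_at), with a log2 signal of 6.92 against 7.80 in the nearest array, a gap of 0.594 of the group's range. The same array had the highest smooth muscle score of all, 12.09, and whether that moved Egr2 was not tested.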

How the results depend on the processing

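Nr4a2 kept its direction and passed under every limma alternative run, 23 in all, with a log2 difference of 1.47 to 1.83 for 1369007_at. The count of members that passed, 2, became 1 with the deposited scaling, without proximal rats 3 and 6 and without rats 3 and 6 in both regions. It became 5 with rat as a block (the replicate block). By exact permutation of signs before adjustment it was 6, with Nr4a3 counted toward proximal colon and no share of all genes beside it. It ran from 1 to 3 when 1 rat was left out, with 1 without rat 2 or 5. Of the 16 member probe sets tested, 4 passed, and 2 did with the deposited scaling, 2 without rats 3 and 6 and 8 with the block. Of all 21729 probe sets, 5762 passed, and 3426, 5516 and 7056 did in the same settings. Without 1 rat, 3 to 5 member probe sets passed. With the deposited scaling 2003 genes passed (against 3510), 3426 probe sets (against 5762) and 17 early response genes (against 31), and 22.5% of the genes that passed were higher in distal colon, against 52.8%. Without 1 rat the counts ran from 3016 to 3666 genes, 4829 to 6015 probe sets and 24 to 31 early response genes. The block ended no call among the genes named from the lists. Some signs turned, all at values that did not pass. Nr4a1 had -0.011 with the deposited scaling (with and without the block), -0.0066 without proximal rats 3 and 6 and -0.032 without rats 3 and 6 (with and without the block). Without proximal rats 3 and 6, Fosb had -0.14, Jun (1389528_s_at) -0.031 and Nr4a3 (1369067_at) 0.19. That Nr4a3 probe set had 0.18 without rats 3 and 6 (with and without the block), 0.040 without the 3 arrays of highest smooth muscle score and -0.23 to 0.17 without 1 rat. The mean of all Nr4a3 probe sets had 0.027, and Egr1 ran from -0.14 to 0.021 without 1 rat. The cause was not tested. Settings that leave out rats 3 and 6 in both regions or the 3 arrays of high muscle score, or join the block to the deposited scaling, were chosen after the data were seen. Fosb, Nr4a3 and the dimmer Fos and Egr2 probe sets had signals near the filter level, which limits what they can show.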
